A study of Mus musculus with 2 samples.

Results

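Imprinted genes were followed in newborn mouse neurons of the Sim1 lineage. The members are 43 genes listed by name, of which 42 had a row in the deposited table of molecule counts and 40 held at least 30 unique molecular identifiers (UMIs, each counted as 1 captured RNA molecule) over all cells, out of 14603 genes that reached that minimum and 24905 genes in all. Snurf had no row of its own. Airn, with 39 UMIs, was the member closest above the minimum, and Nespas, with 25 UMIs, was closest below it; Phlda2 held 7 UMIs. The study sorted red fluorescent hypothalamic cells and sequenced them by Drop-seq, a droplet method that reads the end of each captured transcript in single cells. The first library came from Sim1 heterozygous pups, with the genotype Sim1-Cre;tdTomato+/-;Sim1+/-, which lack a working copy of the transcription factor Sim1 on a single chromosome. The second came from control pups with the genotype Sim1-Cre;tdTomato+/-. Both carry the Sim1-Cre driver and the Cre-dependent tdTomato reporter, both are on the CD-1 strain, and both pool hypothalami of pups aged postnatal day 1 to 4, of 6 pups by the design text and of 5 to 6 by the protocol. Each genotype is 1 library, so a difference between them compares these libraries and has no replicate check; the reporter marks cells whose lineage once used the Sim1 driver, whether or not they still make Sim1.

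An imprinted gene is read mainly from a single parental copy, the choice being set by DNA methylation laid down in the egg or the sperm. Such genes lie in clusters in which protein-coding genes read from the paternal copy often sit beside long noncoding RNAs read from the maternal copy, or the reverse. Many are highly expressed in the hypothalamus and are known for effects on growth, feeding, body temperature and maternal care, and the Prader-Willi and Angelman syndromes of humans come from loss of members of the same cluster. The counts used here do not tell the parental copies apart, so all values are the sum of both.

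The Sim1 heterozygous library held 2476 barcodes with 5397693 UMIs and the control library 2807 barcodes with 6525080 UMIs, and no barcode was shared. Barcodes with at least 300 genes were gated by marker genes as neurons (2394 in the Sim1 heterozygous and 2758 in the control library, median 1615 and 1789 UMIs) or as glia (48 and 37 cells, median 866 and 1246 UMIs). Among the neurons, 7 gates were set by the UMIs of a single gene: at least 10 UMIs of Avp (vasopressin; 26 Sim1 heterozygous and 111 control cells) or of Oxt (oxytocin; 10 and 69 cells), and at least 2 UMIs of Crh (corticotropin-releasing hormone; 41 and 43 cells), Trh (thyrotropin-releasing hormone; 46 and 67 cells), Foxb1 (a mammillary transcription factor; 871 and 658 cells), Neurod6 (a neuronal transcription factor; 30 and 56 cells) or Tcf7l2 (a Wnt effector made by thalamic neurons; 23 and 118 cells). A cell may be in several gates: 8 of the 10 Sim1 heterozygous and 50 of the 69 control Oxt cells were also Avp cells, so these gates are largely the same cells. Sim1 itself had 92.7 and 113 CPM (UMIs of the gene per 1000000 UMIs of those cells) in the Sim1 heterozygous and control neurons, 10.4 and 8.78 CPM in the Tcf7l2 gate, and 0 UMIs in the glia of either library. Gates set by a UMI count take more cells from deeper libraries, and the gate sizes differ between the libraries.

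The promoter windows of Dlk1 and Meg3 are shown because these members share a cluster on chromosome 12 and differed in how they spread over the gates, and those of Peg3 and Usp29 because they start back to back on chromosome 7; the 4 were chosen after the values were seen. The windows are from RefSeq, build GRCm38.p6, and run 5′ to 3′ from 250 bases before to 50 bases after the start site, with each CG, the site of the methylation that imprinting uses, in capitals. Dlk1, Meg3 and Usp29 lie on the plus strand and Peg3 on the minus strand. The table held a window for 32 of the 40 members; for Meg3, which had 2, the one nearest the annotated start is shown.
Dlk1 chr12:109452573-109452872: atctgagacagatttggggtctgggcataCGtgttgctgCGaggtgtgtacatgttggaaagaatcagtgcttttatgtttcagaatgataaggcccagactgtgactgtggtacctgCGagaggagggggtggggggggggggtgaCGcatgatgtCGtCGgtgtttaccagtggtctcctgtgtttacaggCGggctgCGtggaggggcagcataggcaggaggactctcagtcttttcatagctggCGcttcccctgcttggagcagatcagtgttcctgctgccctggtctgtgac
Meg3 chr12:109540746-109541045: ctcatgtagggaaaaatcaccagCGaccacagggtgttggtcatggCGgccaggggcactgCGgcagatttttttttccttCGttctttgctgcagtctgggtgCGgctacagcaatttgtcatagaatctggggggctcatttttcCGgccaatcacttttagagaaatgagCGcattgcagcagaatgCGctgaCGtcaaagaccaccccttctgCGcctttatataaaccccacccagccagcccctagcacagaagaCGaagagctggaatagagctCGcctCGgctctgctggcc
Peg3 chr7:6730370-6730669: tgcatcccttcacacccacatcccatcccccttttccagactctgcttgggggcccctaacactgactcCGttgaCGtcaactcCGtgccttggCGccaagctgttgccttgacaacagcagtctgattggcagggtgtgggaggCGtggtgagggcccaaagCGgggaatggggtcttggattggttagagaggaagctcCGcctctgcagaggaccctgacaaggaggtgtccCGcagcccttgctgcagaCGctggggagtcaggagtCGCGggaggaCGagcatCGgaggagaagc
Usp29 chr7:6730333-6730632: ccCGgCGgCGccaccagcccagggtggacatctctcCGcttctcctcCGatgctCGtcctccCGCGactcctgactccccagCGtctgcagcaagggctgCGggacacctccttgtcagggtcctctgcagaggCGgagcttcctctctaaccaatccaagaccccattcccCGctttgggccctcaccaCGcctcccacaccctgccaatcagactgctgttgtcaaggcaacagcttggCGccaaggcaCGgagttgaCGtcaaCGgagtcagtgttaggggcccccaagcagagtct
The windows held 9 CG for Dlk1, 13 for Meg3, 13 for Peg3 and 17 for Usp29, against a median of 7 over 32851 windows; 45.8%, 37.9%, 37.9% and 31.4% of all windows held as many. The Peg3 and Usp29 windows overlapped by 263 bases, read on opposite strands, and their start sites lay 164 bases apart. The motif CCATNTT, searched on both strands, had 0 matches in these 4 windows and was present in 16.1% of all windows.

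Together the 40 members made up 2.89% of all UMIs in Sim1 heterozygous neurons and 2.94% in control neurons, and most of that came from a few genes. Meg3, a maternally expressed long noncoding RNA, led with 11954 CPM in Sim1 heterozygous neurons (95% interval 11861 to 12047) and 11149 CPM in control neurons (11068 to 11231). Nnat (neuronatin, a small membrane protein of neurons) followed with 6182 and 7021 CPM, and Gnas, which encodes the G protein subunit that activates adenylyl cyclase, with 2881 and 3657 CPM. Intervals are exact Poisson or conditional binomial ones, cover counting error only and treat UMIs of a cell as independent; levels count transcript ends and are not corrected for length. Meg3 was seen in 97.2% of Sim1 heterozygous and 98.2% of control neurons, at a median of 21 and 22 UMIs per cell. It was seen in 50% and 73% of the shallower glia, at a median of 0.5 and 1 UMI. The next by level were Nap1l5 (a nucleosome assembly protein relative; 1567 CPM in Sim1 heterozygous and 1237 CPM in control neurons), Ndn (necdin, a MAGE family protein that restrains growth; 1347 and 1778 CPM) and Peg3 (a zinc finger protein; 912 and 752 CPM). Snrpn, which encodes a splicing protein of the brain, had 765 and 670 CPM. Inpp5f (a phosphoinositide phosphatase) had 378 and 304 CPM, Ube3a (a ubiquitin ligase, read from the maternal copy in neurons) 367 and 379 CPM, and Blcap, whose gene contains Nnat, 340 and 293 CPM. The other 30 members lay below these, down to Igf2, with 1 UMI in Sim1 heterozygous and 2 UMIs in control neurons, and H19, with 4 and 8 UMIs; these 2 were under 30 UMIs in neurons and were left out of the ratios, which leaves 38 members measured there.

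**Figure D1:**
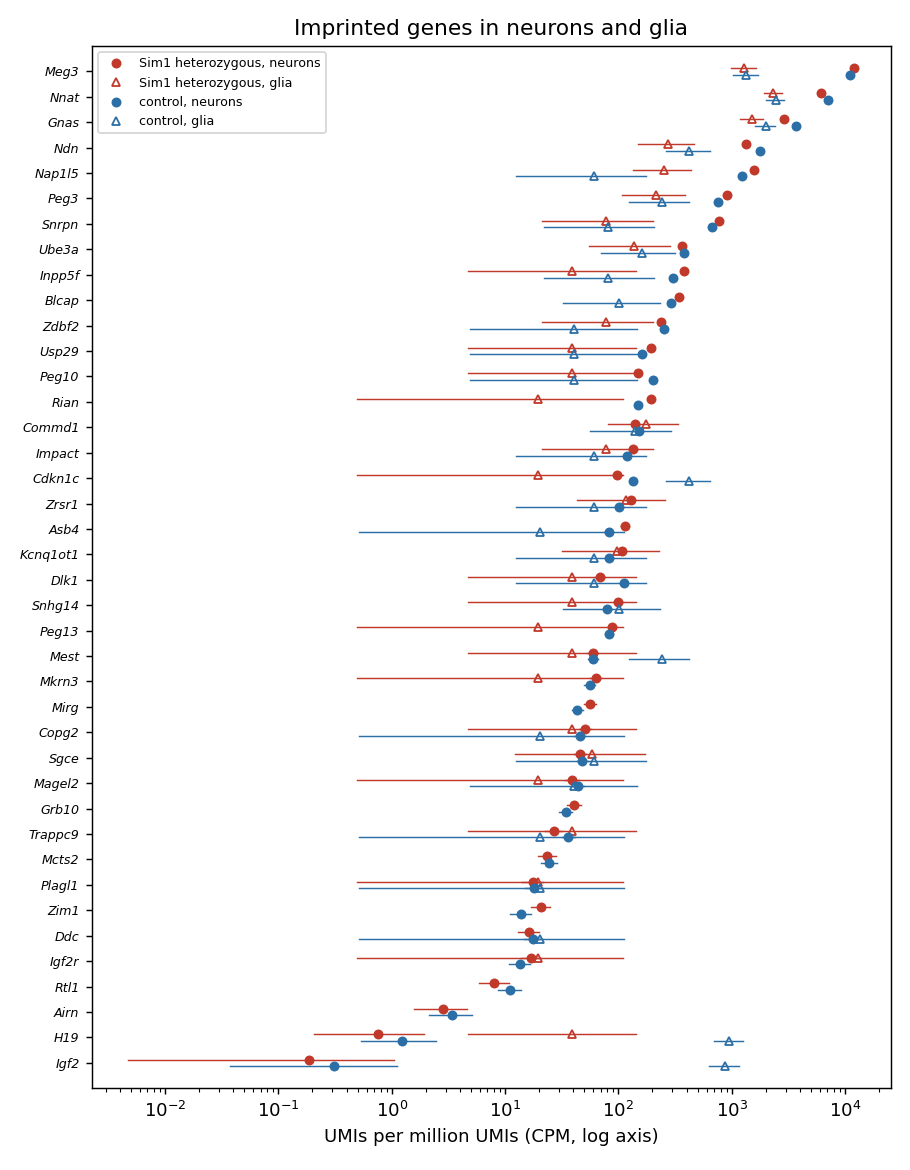
Level of each of the 40 members in CPM (log axis) in neurons (filled circles) and glia (open triangles) of the Sim1 heterozygous (red) and control (blue) libraries, with exact Poisson 95% intervals; a member with 0 UMIs in a set of cells has no symbol there. Meg3 stands at 11954 and 11149 CPM in neurons and at 1276 and 1330 CPM in glia. H19 and Igf2, at the foot, are higher in control glia than in the neurons of either library. That glia level comes almost wholly from a single cell with 43 Igf2 and 44 H19 UMIs, which also held 28 UMIs of fibroblast genes.

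Dlk1 set the Avp, Oxt and Crh neurons apart, with larger ratios than any other member called higher in a gate. It encodes a membrane protein related to Notch ligands and is read from the paternal copy at chr12:109452823-109463336 (plus strand, GENCODE M21). In the Avp gate it had 754 CPM in Sim1 heterozygous cells (566 to 983) and 766 CPM in control cells (671 to 871), in the Oxt gate 626 and 563 CPM. In the Crh gate it had 700 and 520 CPM. The neurons in no gate had 72.4 and 92.3 CPM. The Avp, Oxt and Crh gates thus stood apart from all other neurons in both libraries. Trh cells had 144 CPM in the Sim1 heterozygous and 152 CPM in the control library, Neurod6 cells 112 and 176 CPM, Foxb1 cells 12.6 and 26.6 CPM, and Tcf7l2 cells 10.4 and 29.3 CPM (1 and 10 UMIs). The intervals of the Avp, Oxt and Crh gates lay above those of the Trh gate in both libraries; they overlapped each other in the Sim1 heterozygous library, while in the control library Avp lay above Oxt and Crh. With every cell thinned to 800 UMIs and shallower cells left out (504 of the Sim1 heterozygous and 90 of the control neurons), 47.6% of Sim1 heterozygous and 36.9% of control Avp cells held a Dlk1 UMI, against 0.895% and 1.09% of Foxb1 cells and 3.57% and 2.70% of glia (1 cell in each library). Before thinning the shares were 65.4% and 66.7% of Avp cells, 2.41% and 3.80% of Foxb1 cells and 4.17% and 5.41% of glia. The cells of the Avp, Oxt or Crh gates were 2.76% of the Sim1 heterozygous and 5.77% of the control neurons and held 31.4% and 37.3% of the neurons' Dlk1 UMIs; 50.5% and 49.1% lay in neurons of no gate.

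The maternally expressed noncoding RNAs of the same cluster did not follow Dlk1. Meg3 ranged over the gates from 7577 CPM (Neurod6) to 12325 CPM (no gate) in the Sim1 heterozygous library, and from 8339 CPM (Avp) to 11887 CPM (Foxb1) in the control library, a fold of 1.63 and 1.43. Rian, which hosts small nucleolar RNAs, had 193 and 150 CPM in Sim1 heterozygous and control neurons, and Mirg, which hosts microRNAs, 56.1 and 43.5 CPM. Neither passed 1.5-fold the same way in both libraries in a gate where it was measured. Rtl1, a paternally expressed protein derived from a retrotransposon, was rare, with 43 and 71 UMIs in all neurons. No test of the difference between Dlk1 and its neighbours was made; the values stand side by side.

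In the Peg3 cluster on chromosome 7, Peg3 and Usp29 (a ubiquitin-specific peptidase), whose windows are printed above, had 912 and 195 CPM in Sim1 heterozygous neurons and 752 and 161 CPM in control neurons. Their log2 ratios between the libraries, Sim1 heterozygous over control, were both 0.28 (0.22 to 0.34 for Peg3 and 0.15 to 0.40 for Usp29). Zim1, a zinc finger gene read from the maternal copy, was rarer, with 20.6 CPM in Sim1 heterozygous and 13.8 CPM in control neurons. Peg3 was lower in the Tcf7l2 gate than in neurons of no gate, with 564 against 1058 CPM in the Sim1 heterozygous library (log2 -0.88) and 407 against 835 CPM in the control library (log2 -1.03). Usp29 had no such call there, at 198 and 129 CPM in the Sim1 heterozygous and control Tcf7l2 cells.

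The Prader-Willi and Angelman cluster, also on chromosome 7, held 3 of the 10 most abundant members (Ndn, Snrpn and Ube3a). Snrpn was even, from 648 to 873 CPM over the Sim1 heterozygous gates and from 556 to 802 CPM over the control gates, a fold of 1.35 and 1.44. Magel2, a MAGE family protein that acts with a ubiquitin ligase on endosomes, was rare, at 39 CPM in Sim1 heterozygous and 43.9 CPM in control neurons, but was higher in the Avp gate, with 154 CPM (11 UMIs) in Sim1 heterozygous and 92.1 CPM (28 UMIs) in control cells, against 42.6 and 44.1 CPM in neurons of no gate. It was also past 1.5-fold in the Trh gate, at 85.2 CPM in the Sim1 heterozygous and 66.5 CPM in the control library, where the control interval of the log2 ratio ran from -0.31 to 1.38 and included 0. Mkrn3 (a zinc finger ubiquitin ligase) had 63 and 55.6 CPM in Sim1 heterozygous and control neurons, and Snhg14, the long host RNA that runs antisense into Ube3a, 100 and 80 CPM. No source used here states whether reads were counted by strand, so Snhg14 and Ube3a reads may be mixed; the same holds for Nnat and Blcap, Igf2r and Airn, Mest and Copg2, Nap1l5 and Herc3, Zrsr1 and Commd1, Kcnq1ot1 and Kcnq1, and for Peg13 and Mcts2, which lie within Trappc9 and H13 on the same strand.

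Nnat, on chromosome 2, was lowest in the Tcf7l2 gate of both libraries, at 2747 CPM in Sim1 heterozygous and 4567 CPM in control cells against 6018 and 6904 CPM in neurons of no gate, and highest in the Crh gate, at 10737 and 8745 CPM. Gnas, on the same chromosome, was highest in the Neurod6 gate, at 5591 CPM (5152 to 6058) in Sim1 heterozygous and 7324 CPM (6916 to 7749) in control cells, and lowest in the Foxb1 gate, at 2232 and 2680 CPM. The Neurod6 and Foxb1 intervals of Gnas did not touch in either library.

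The Neurod6 gate also had the highest levels of several rarer members. Cdkn1c (p57, an inhibitor of cyclin-dependent kinases, read from the maternal copy at chr7:143458339-143461050) had 403 CPM in Sim1 heterozygous and 237 CPM in control Neurod6 cells, against 99.8 and 123 CPM in neurons of no gate. Avp, Oxt and Crh cells held 0 Cdkn1c UMIs in the Sim1 heterozygous library (which allows up to 51.5, 79.7 and 37.4 CPM) and 10, 6 and 4 UMIs (32.9, 24 and 28.5 CPM) in the control library. These 3 gates had the highest Dlk1 levels, and Cdkn1c was too rare in them to be measured by the rule used for calls. Dlk1 was also called higher in the Neurod6 gate, where Cdkn1c was highest, on 12 Sim1 heterozygous and 29 control UMIs. Without its 2 richest cells in each library that Dlk1 ratio had opposite signs in the libraries. Plagl1, a zinc finger transcription factor that restrains growth, had 84.3 CPM in Sim1 heterozygous and 85 CPM in control Neurod6 cells (9 and 14 UMIs), against 23.6 and 21.4 CPM in neurons of no gate. Peg10, a protein derived from a retrotransposon, had 421 and 632 CPM there, against 236 and 261 CPM. The Neurod6 calls of Cdkn1c and Plagl1 rest on a few cells: without the 2 richest cells of each, chosen as an alternative after the data were seen, the smaller of the log2 ratios was 0.06 for Cdkn1c and 0.35 for Plagl1, and with cells thinned to 800 UMIs it was 0.06 for Peg10.

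Peg10 and Asb4, which lie on the same stretch of chromosome 6 (Peg10 at chr6:4747306-4760517, Asb4 at chr6:5383386-5433022), were both low in the Avp, Oxt and Crh gates but not in the Trh gate. In Trh cells Peg10 had 261 CPM in Sim1 heterozygous and 375 CPM in control cells and Asb4 202 and 109 CPM. Asb4, a subunit of ubiquitin ligases, held 0 UMIs in the Oxt gate of either library and 1 and 3 UMIs in the Avp gate (14 CPM in Sim1 heterozygous and 9.87 CPM in control cells), against 181 and 118 CPM in neurons of no gate. Peg10 held 1 UMI in Sim1 heterozygous and 20 UMIs in control Avp cells (14 and 65.8 CPM), and 0 and 16 UMIs in Oxt cells; the 0 gives a level at least 3.65-fold lower than in neurons of no gate when set at 3 UMIs for that gate and library. In the Foxb1 gate, the largest, Asb4 had 13 CPM in Sim1 heterozygous and 6.14 CPM in control cells and Peg10 34.6 and 49.8 CPM. Sgce (epsilon-sarcoglycan), which starts next to Peg10 on the other strand, had 46 and 48 CPM in Sim1 heterozygous and control neurons and no called difference over the gates. In the control library it ran from 34.1 CPM in Foxb1 to 64.1 CPM in Crh cells. Asb4 differed between the libraries in the Neurod6 gate, at 637 CPM (68 UMIs) in Sim1 heterozygous and 128 CPM (21 UMIs) in control cells.

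Zdbf2 and Nap1l5 varied with the gates at higher counts. Zdbf2, a paternally expressed zinc finger gene at chr1:63273265-63314576, had 712 CPM in Sim1 heterozygous and 806 CPM in control Avp cells and 660 and 420 CPM in Crh cells, against 285 and 274 CPM in neurons of no gate, and only 145 and 112 CPM in Foxb1 cells and 104 and 76.1 CPM in Tcf7l2 cells. Nap1l5 at chr6:58905233-58907076 had 3613 CPM in Sim1 heterozygous and 2380 CPM in control Crh cells, against 1984 and 1394 CPM in neurons of no gate, and 813 and 596 CPM in Foxb1 cells. Of the Crh cells, 3 of 41 in the Sim1 heterozygous and 15 of 43 in the control library were also in other gates, and Avp stood at 995 and 7077 CPM in them. Without cells that lie in several gates, the smaller log2 ratio in the Crh gate was 0.25 for Zdbf2 and 0.52 for Nap1l5, both under the 1.5-fold limit. Crh was the highest gate of Nap1l5 and Foxb1 and Tcf7l2 the lowest in both libraries, although the Crh interval overlapped that of Neurod6 in the Sim1 heterozygous library and that of Avp in the control library. Impact, an inhibitor of the stress kinase Gcn2, was lower in the Foxb1 gate, at 49.9 CPM in Sim1 heterozygous and 55.9 CPM in control cells against 181 and 141 CPM in neurons of no gate.

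The remaining members were rarer or more even. Kcnq1ot1 had 108 CPM in Sim1 heterozygous and 82.6 CPM in control neurons, Commd1 (a copper and protein trafficking factor) 141 and 154 CPM, and Zrsr1, a splicing factor relative that lies within it, 128 and 101 CPM. Peg13, a noncoding RNA within the trafficking gene Trappc9, had 88.8 and 82.6 CPM, and Trappc9 itself 26.8 and 36.1 CPM. Mest had 59.7 and 60 CPM and its neighbour Copg2, a vesicle coat subunit, 51 and 45.6 CPM. None of these showed a called difference over the gates except Mest in the Tcf7l2 gate and Peg13 in the Neurod6 gate, the second on 4 Sim1 heterozygous and 7 control UMIs. Grb10, an adaptor that dampens insulin receptor signalling, had 40.7 and 34.2 CPM in Sim1 heterozygous and control neurons, and Ddc, the decarboxylase that makes dopamine and serotonin, 16.3 and 17.8 CPM. Mcts2, a retrogene, had 23.6 and 24.6 CPM, Igf2r, the receptor that clears Igf2, 17.1 and 13.5 CPM, and Airn, the noncoding RNA antisense to it, 2.81 and 3.41 CPM.

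**Figure D2:**
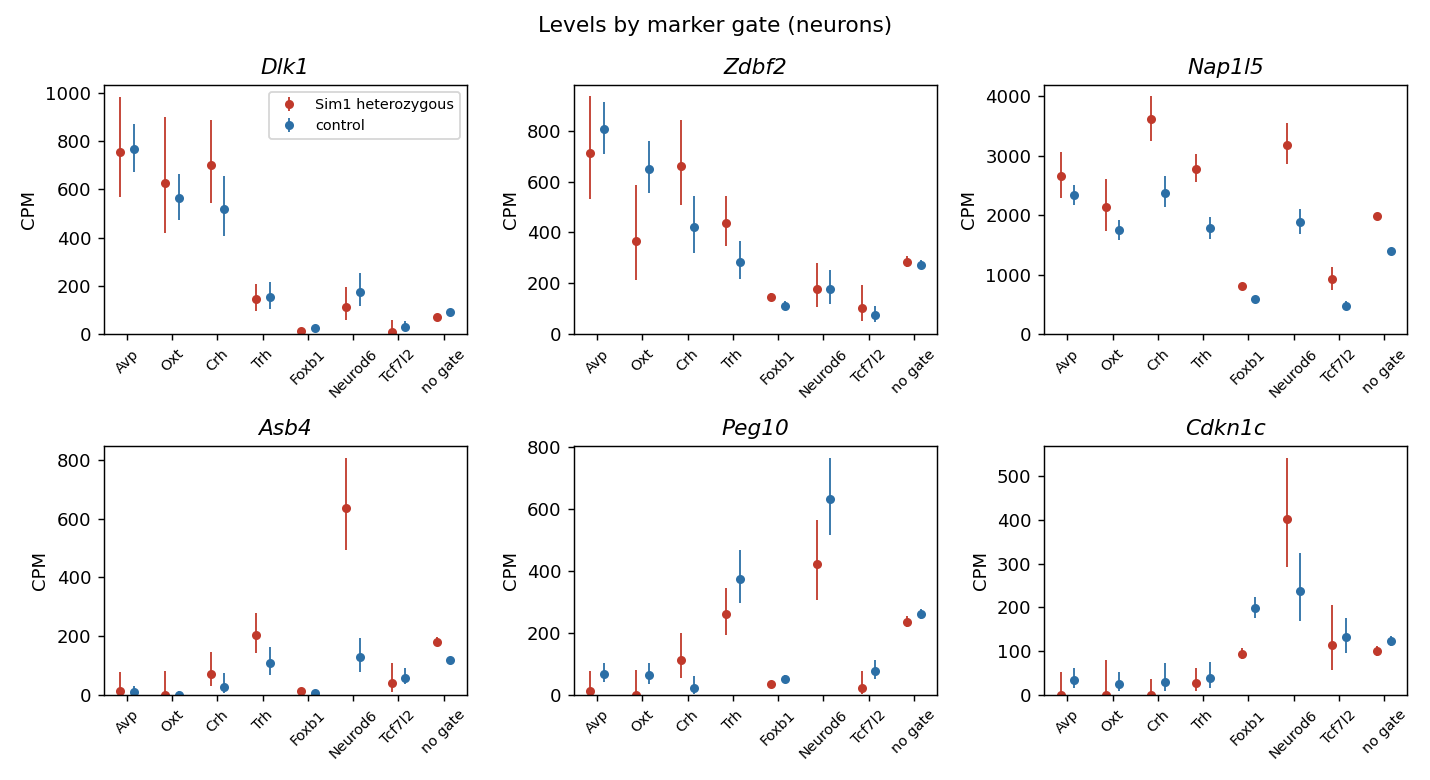
Levels (CPM) of Dlk1, Zdbf2, Nap1l5, Asb4, Peg10 and Cdkn1c, chosen after their values were seen, in the neurons of each gate and of no gate, in the Sim1 heterozygous (red) and control (blue) libraries with exact Poisson 95% intervals. Dlk1 is at 754 and 766 CPM in Avp cells and at 12.6 and 26.6 CPM in Foxb1 cells, whereas Cdkn1c, at 403 and 237 CPM, and Peg10, at 421 and 632 CPM, are highest in Neurod6 cells.

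Counted by gate, a member was called where it passed 1.5-fold the same way in both libraries against neurons in no gate, with 1 UMI added to each count, and was measured where at least 5 UMIs were expected in each library. The expected UMIs came from the mean of the gate and reference levels. A member nearly absent from a gate thus entered through its reference level and could not be called higher. Examples are Peg10 in Oxt cells (0 Sim1 heterozygous UMIs) and Asb4 in Avp cells (1 and 3 UMIs). The counts of lower members are therefore partly set by this rule, which was the same for all genes. All 7 gates share these reference neurons, and the Avp, Oxt and Crh gates share cells, so their counts are not independent. In the Foxb1 gate 0 of 37 measured members were higher and 7 were lower (Asb4, Peg10, Dlk1, Plagl1, Impact, Nap1l5 and Zdbf2), where 3.87% of 13205 measured genes were higher and 3.72% lower; the members' share of lower calls was above that background. The median log2 ratio of the members there was -0.23 in the Sim1 heterozygous and -0.22 in the control library, against 0.01 and 0.04 over all measured genes. In the Tcf7l2 gate 1 of 27 was higher and 6 were lower (Peg10, Zdbf2, Nap1l5, Asb4, Peg3 and Nnat), against 3.7% higher and 1.65% lower of all genes. The higher one was Mest, a hydrolase-like enzyme read from the paternal copy, on 9 and 28 UMIs. It had 94 CPM in Sim1 heterozygous and 81.9 CPM in control Tcf7l2 cells, against 56.1 and 55.8 CPM in neurons of no gate. The control levels are under 1.5-fold apart, and the Mest call there comes from the added UMI. In the Neurod6 gate 5 of 28 were higher (Plagl1, Cdkn1c, Peg10, Gnas and Dlk1) and 2 lower (Peg13 and Zdbf2), against 3.73% and 1.3%.

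In the Avp gate 3 of 24 were higher (Dlk1, Zdbf2 and Magel2) and 2 lower (Peg10 and Asb4), against 7.61% and 9.44% of all genes, so that neither count stood far from the background. In the Oxt gate 1 of 18 was higher (Dlk1) and 1 lower (Peg10), against 6.98% and 8.62%. In the Crh gate 3 of 25 were higher (Dlk1, Zdbf2 and Nap1l5) and 2 lower (Asb4 and Peg10), against 5.88% and 2.25%. In the Trh gate 2 of 30 were higher (Magel2 and Dlk1) and 1 lower (Cdkn1c, at 26.6 and 38 CPM in Sim1 heterozygous and control cells), against 4.23% and 1.75%. The size of the Dlk1 ratio set it apart from these counts: its log2 ratio was 3.40 (2.92 to 3.82) in Sim1 heterozygous and 3.06 (2.81 to 3.30) in control Avp cells, and 3.29 and 2.51 in Crh cells. Leaving out cells in several gates put the smaller Crh value at 1.82. Of the 36 called pairs of member and gate, 21 stayed past the limit in every alternative that gave a value. Among them were all those of the Avp, Oxt and Foxb1 gates. In the Oxt gate, leaving out cells in several gates left 2 Sim1 heterozygous cells and gave no value. The Oxt calls were thus not checked apart from the shared Avp cells. The 15 other called pairs dropped under the limit in at least 1 alternative: Asb4, Nap1l5, Peg10 and Zdbf2 in Crh cells, Dlk1 and Magel2 in Trh cells, Asb4, Mest and Nnat in Tcf7l2 cells, and all the Neurod6 pairs except Gnas.

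**Figure D3:**
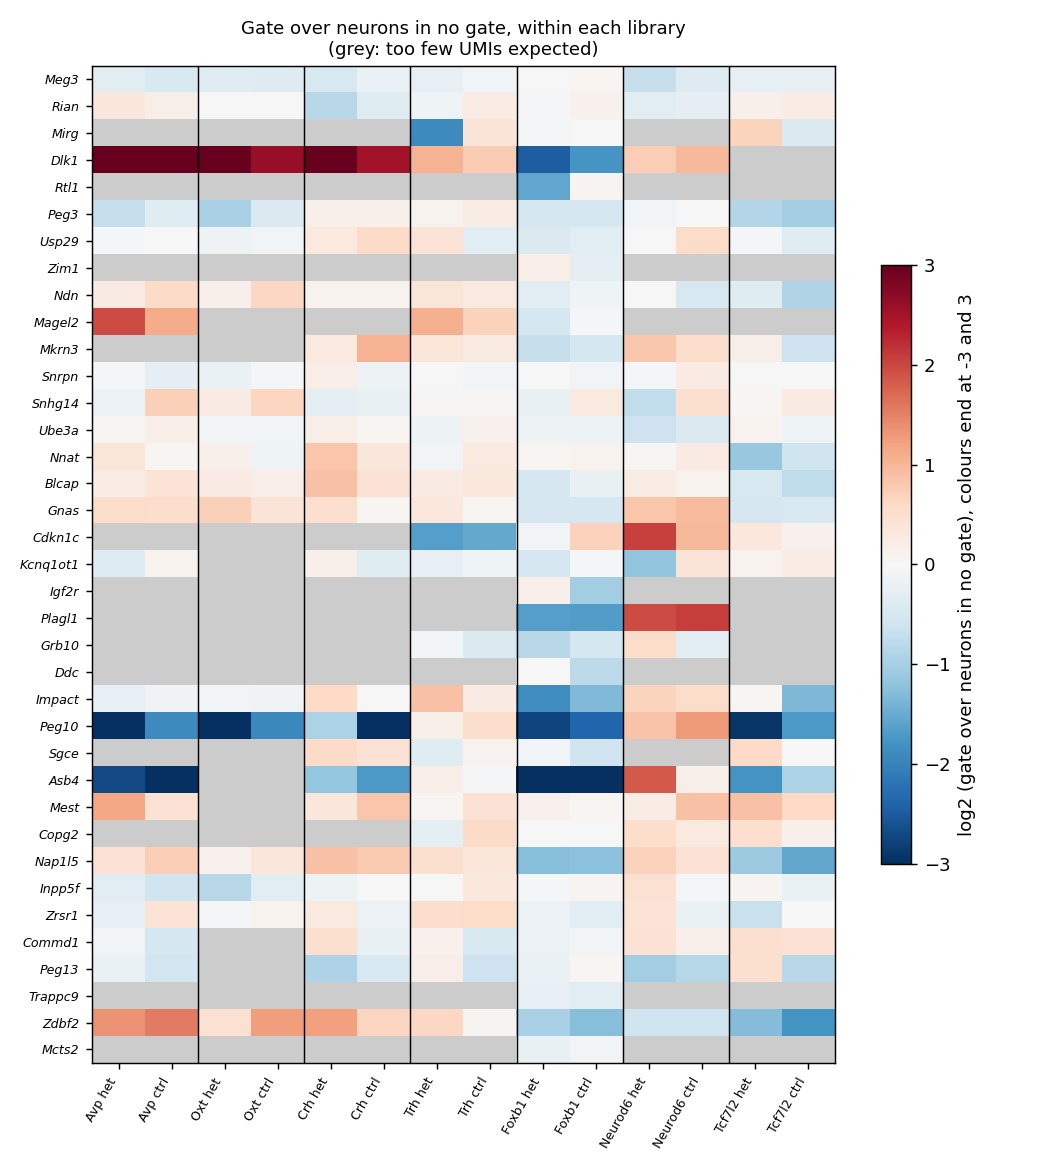
The log2 ratio of each gate over neurons in no gate, for the members measured in at least 1 gate, with the Sim1 heterozygous column (het) left of the control column (ctrl) for each gate; red is higher in the gate, blue lower, grey not measured, and colours end at -3 and 3. Dlk1 is red in the Avp, Oxt, Crh, Trh and Neurod6 columns and blue in the Foxb1 columns, and Meg3 is pale throughout.

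Glia held far less of this RNA. The members summed to 0.719% of UMIs in Sim1 heterozygous glia and 1.02% in control glia, against 2.89% and 2.94% in neurons of the same libraries. Meg3 had 1276 CPM in Sim1 heterozygous glia and 1330 CPM in control glia, a log2 ratio to neurons of -3.21 (-3.60 to -2.88) and -3.05 (-3.44 to -2.72). Of 12 members measured, 0 were higher and 11 lower in both libraries, where 19.6% of 1838 measured genes were higher and 22.1% lower; the median log2 ratio of the 12 was -2.07 in the Sim1 heterozygous and -1.56 in the control library, against -0.08 and 0.01 over all measured genes. A gene was measured here where the mean of its glia and neuron levels gave at least 5 expected UMIs in the glia of each library. Blcap, Snrpn, Nap1l5, Inpp5f and Zdbf2 held fewer in the glia of a library and entered through their neuron level. Inpp5f had 2 UMIs in Sim1 heterozygous and 4 in control glia, and Zdbf2 had 4 and 2. The counts of higher and lower members are therefore partly set by this rule, which was the same for all genes. Snrpn, with 4 UMIs in the glia of each library, had log2 ratios of -2.96 and -2.73. Nap1l5, with 13 and 3 UMIs, had -2.51 and -3.94. Blcap had 0 UMIs in Sim1 heterozygous glia, a level at least 5.77-fold lower than in neurons when set at 3 UMIs. Gnas was the least reduced of the 11, at 1512 CPM in Sim1 heterozygous and 1995 CPM in control glia. The glia rest on 48 and 37 cells. Of the 506 member UMIs of control glia, 43 Igf2, 44 H19 and 14 Cdkn1c UMIs came from a single cell, described next.

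Igf2, the fetal growth factor, and H19, its noncoding neighbour, showed another pattern. Over all barcodes Igf2 had 3 UMIs in the Sim1 heterozygous and 88 in the control library, and H19 had 6 and 58. A single control cell in the glia gate held 43 Igf2 and 44 H19 UMIs together with 28 UMIs of 5 fibroblast genes, 9 of the glia list and 1 of the neuron list, and a second control cell in neither class held 39 Igf2 UMIs with 27 fibroblast UMIs. The first of these cells also held 14 of the 21 Cdkn1c UMIs of control glia. The fibroblast list summed to 118 CPM (6 UMIs) in Sim1 heterozygous and 746 CPM (37 UMIs) in control glia and to 4.13 and 3.72 CPM in neurons.

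Between the libraries few members passed 1.5-fold in neurons as a whole. Of the 38 measured, 0 were past 1.5-fold higher and 1 past 1.5-fold lower in Sim1 heterozygous neurons. Over 14454 genes the shares were 7.91% higher and 9.17% lower, so both shares of the members lay below the background. Those genes were not matched to the members by UMI count. The shares therefore do not show that members differed less than genes of like abundance. The median log2 ratio, Sim1 heterozygous over control, was 0.10 for the members and 0.04 for all measured genes. The member past the limit was Dlk1, with 69.4 CPM (370 UMIs) in Sim1 heterozygous and 112 CPM (721 UMIs) in control neurons, a log2 ratio of -0.68 (-0.87 to -0.50). With each cell given equal weight the ratio was -0.58, just inside the limit. With the gates weighted by the control library's shares it was -0.15. Neurons of no gate held 187 of the 370 Sim1 heterozygous and 354 of the 721 control Dlk1 UMIs. Their ratio was -0.35 (-0.61 to -0.09), with an interval below 0. In the Avp, Oxt and Crh gates the libraries' Dlk1 intervals overlapped. In the Foxb1 gate the ratio was -1.06 (-1.83 to -0.34) on 28 and 39 UMIs. The share of Foxb1 cells with a Dlk1 UMI was below that of glia in both libraries, but the thinned glia shares rest on 1 cell in each. Whether this Dlk1 value lies at a background level was not tested. Avp moved the same way in the Foxb1 cells, at 42.3 CPM (94 UMIs) in Sim1 heterozygous and 608 CPM (892 UMIs) in control cells. Without cells in several gates the Dlk1 ratio was -0.64 (-1.46 to 0.17). The pituitary hormone list, 6 genes, summed to 6.38 CPM in Sim1 heterozygous neurons, with Gh and Tshb at 0, and to 353 CPM in control neurons, with Pitx1 at 0. Without cells rich in pituitary or fibroblast markers the Dlk1 ratio was -0.70.

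The other members lay between -0.46 and 0.58. Of the 10 most abundant, Nap1l5 (0.34), Inpp5f (0.31), Peg3 (0.28), Blcap (0.22), Snrpn (0.19) and Meg3 (0.10) had intervals above 0, and Ndn (-0.40), Gnas (-0.34) and Nnat (-0.18) intervals below 0, while that of Ube3a (-0.04) included 0. The counting intervals of such abundant genes are narrow and do not cover differences between pools of pups. Peg10 and Cdkn1c had -0.44 and -0.46, and Asb4, Rian, Mirg and Kcnq1ot1 (an antisense noncoding RNA) 0.49, 0.36, 0.37 and 0.38. Zim1, at 0.58 (0.17 to 1.00) on 110 and 89 UMIs, lay just under the limit. In all, 15 of the 38 intervals lay above 0, 7 below and 16 included it.

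**Figure D4:**
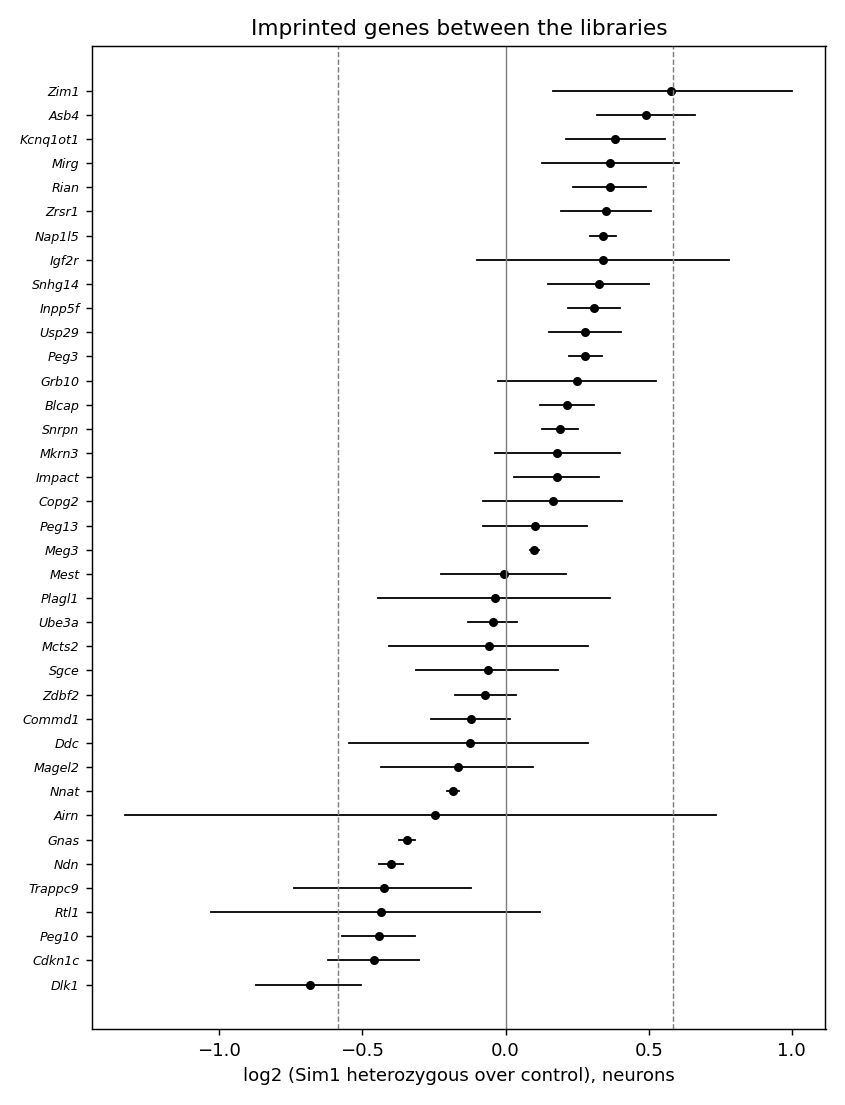
The log2 ratio of Sim1 heterozygous over control neurons for the 38 members measured, with conditional exact 95% intervals (counting error only); the dashed lines mark 1.5-fold. Dlk1, at -0.68, is the only member past a line, and Zim1, at 0.58, lies on the inner side of the other.

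Within gates, where counts are lower, more members passed 1.5-fold between the libraries, as did more of all genes. Nap1l5 was higher in the Sim1 heterozygous library in 4 gates with intervals above 0: 3613 against 2380 CPM in control Crh cells (log2 0.60), 2784 against 1776 CPM in control Trh cells (0.65), 3184 against 1883 CPM in control Neurod6 cells (0.76) and 919 against 471 CPM in control Tcf7l2 cells (0.97). Ndn was lower in the Sim1 heterozygous Avp and Oxt cells, with 1717 against 2671 CPM in control Avp cells (-0.63) and 1598 against 2792 CPM in control Oxt cells (-0.79). Cdkn1c was lower in Foxb1 cells, at 93.6 CPM in Sim1 heterozygous and 199 CPM in control cells (-1.09, from -1.35 to -0.83). Among the neuron gates Asb4 had the widest gap, with a log2 ratio of 2.27 (1.60 to 3.10) in Neurod6 cells. Impact was higher in Trh cells, at 330 CPM in Sim1 heterozygous and 161 CPM in control cells (1.01), and in Tcf7l2 cells, at 178 and 52.7 CPM (1.76).

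The counts by gate, against all measured genes, were 7 of 24 members higher and 0 lower in Crh cells (21.5% and 14.8% of all genes), 8 and 3 of 32 in Trh cells (16.8% and 15.2%), and 6 and 3 of 27 in Neurod6 cells (19.4% and 12.9%). They were 8 and 1 of 25 in Tcf7l2 cells (23.1% and 10.7%), 3 and 3 of 37 in Foxb1 cells (10.7% and 12.3%), and 4 and 1 of 21 in Avp cells (24.1% and 8.29%). In Oxt cells 1 of 17 was higher and 2 lower (26.1% and 9.06%), in neurons of no gate 2 and 1 of 38 (9.87% and 9.81%), and in glia 1 and 3 of 10 (18.6% and 22.9%). The members' share of higher calls lay above that of all genes in the Crh, Trh, Neurod6 and Tcf7l2 gates and below it in the other sets. The 1 UMI added to each count weighs more in the library with the smaller gate total. In Avp cells the totals were 71645 Sim1 heterozygous and 303994 control UMIs. The added UMI moves such ratios toward higher, for members and all genes alike. Rian (237 against 161 CPM) and Inpp5f (293 against 197 CPM) in Avp cells were called higher though under 1.5-fold apart in CPM. So was Blcap in Tcf7l2 cells (261 against 176 CPM). These counts rest on few members in each set, several lie near the share of all genes, and no pattern over the gates is read from them. The pituitary list summed to between 0 and 21.6 CPM over the Sim1 heterozygous gates and between 178 and 331 CPM over the control gates; its part in these differences was not tested.

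Lists of other genes gave a setting for these values. Of 43 further imprinted genes, 25 were measured in neurons, with 3 higher (Osbpl5, Sfmbt2 and Herc3) and 2 lower (Dio3 and Th) in the Sim1 heterozygous library and a median log2 ratio of 0.27. The intervals of Dio3 (-2.26 to 0.24) and Th (-1.81 to 0.19) included 0. The shares over all genes were 7.91% higher and 9.17% lower, and the counts of this list and of the lists that follow lay near or below them. The most abundant further imprinted gene, Nap1l4, had 542 CPM in Sim1 heterozygous and 488 CPM in control neurons. Herc3 (log2 0.59) is the gene in which Nap1l5 lies. Of 22 genes linked to the setting, keeping or removal of imprints, 20 were measured, with 0 higher, 1 lower and a median of 0.07. The lower was Ezh2, a histone methyltransferase, at 46.7 CPM in Sim1 heterozygous and 80 CPM in control neurons (-0.77). The cohesin genes Smc1a and Smc3 led that list, at 251 and 245 CPM in Sim1 heterozygous and 262 and 251 CPM in control neurons. Of 22 genes that flank the imprinted clusters, 19 were measured, with 2 higher (Vstm2l at 0.72 and Zfp110 at 0.65), 1 lower (Slc25a29 at -0.68) and a median of 0.07. The intervals of Zfp110 (-0.03 to 1.36) and Slc25a29 (-1.69 to 0.18) included 0.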

How the data were processed

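Drop-seq was run on sorted cells of 1 Sim1 heterozygous and 1 control library. The deposited tables hold UMI counts, whole numbers per gene and cell, with no normalization by the authors; the submitters' processing notes name bcl2fastq, Picard, STAR 2.6.0b, Seurat 3 and mm10 without roles, and the sources used here do not give the counter, its annotation, any use of strand or the rule for calling cells. The merged table matched both library tables in every entry. Analysis used Python 3.11.15 with numpy 2.4.6 and scipy 1.17.1.

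Neurons had at least 3 UMIs over 11 neuron genes and more than over 11 glia genes, and glia at least 5 UMIs the other way round; 12 Sim1 heterozygous and 11 control barcodes were neither, and 22 and 1 had under 300 genes. No doublet caller was run; leaving out the deepest 5% of barcodes stands in for it. UMIs were summed per library and gate, and ratios used 1 added UMI per library. With 1 library per genotype no p-value was computed. The interval code was checked on simulated counts. The members, gates, lists and tests were chosen with earlier results of these data known. Genes named in full are the 10 with the highest level in neurons, those past 1.5-fold between libraries, and up to 3 each way per gate; others named were chosen after their values were seen. Positions are from GENCODE M21, in which the 43 listed members and 23481 of the 24905 symbols were found.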

Additional observations from a re-analysis of the deposited data

Results flagged for a closer look

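2 members differed between the libraries by over 1.5-fold in opposite directions in different gates, each with a counting interval that leaves out 0. Cdkn1c, the cyclin-dependent kinase inhibitor, had a log2 ratio of Sim1 heterozygous over control of 0.76 in Neurod6 cells (403 and 237 CPM) and of -1.09 in Foxb1 cells (93.6 and 199 CPM). Without its 2 richest cells in each library the Neurod6 value was 0.57 (-0.47 to 1.58) on 17 and 19 UMIs, under the limit and with an interval that includes 0, and the Foxb1 value was -1.28. Zdbf2, the zinc finger gene, had 0.65 in Crh cells (660 and 420 CPM), 0.61 in Trh cells (436 and 285 CPM) and -0.75 in Oxt cells (367 and 651 CPM), the last on 10 Sim1 heterozygous cells. The Crh gate held 3 Sim1 heterozygous and 15 control cells that were also in other gates. Without them the Crh value was 0.96 (0.33 to 1.64), and without the 2 richest cells it was 0.59 (-0.01 to 1.19). The Oxt value without cells in several gates, which leaves 2 Sim1 heterozygous cells, was -0.25 (-6.55 to 1.43). Leaving out the 2 richest Oxt cells of each library gave -2.33 (-5.03 to -1.15). Only 3 of the 17 Sim1 heterozygous Zdbf2 UMIs then remained, so that Oxt level rests largely on 2 cells. For Trh cells the value without the 2 richest cells was 0.85 (0.30 to 1.44). The difference between gates was not tested, since each genotype is 1 library. The 1.5-fold limit was set after the values were seen: with no limit, 7 members (Cdkn1c, Gnas, Meg3, Mirg, Nnat, Peg10 and Zdbf2) had intervals on both sides of 0 in different gates, in 29 values.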

How the results depend on the processing

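No paired analysis was possible because each genotype is 1 library, and for the same reason no replicate could be left out. No called gate ratio changed sign in both libraries together, and no library ratio with an interval leaving out 0 changed sign. Some library ratios with intervals that included 0 did change sign. Over the settings Plagl1 ran from -0.11 to 0.77 and Magel2 from -0.22 to 0.09. The 15 member and gate pairs called higher became 27 with 5 UMIs added in place of 1 and 7 without the 2 richest cells of each member in each library, an alternative added after the data were seen; the 21 called lower became 12 with cells thinned to 800 UMIs. Between libraries, the count of members higher in neurons (0) became 1 without the deepest 5% of barcodes (Zim1), 3 with the mean over cells (Kcnq1ot1, Snhg14 and Zim1), 1 with no minimum of UMIs, 2 with thinned cells (Plagl1 and Zim1), 1 with the control mix of gates (Asb4) and 1 without the 2 richest cells (Zim1). The count lower (1, Dlk1) became 2 without the deepest barcodes (Dlk1 and Cdkn1c), 2 with the mean over cells (Airn and Cdkn1c, with Dlk1 just inside) and 0 with the control mix of gates. In glia the 0 members higher became 1 with 5 UMIs added, and the 11 lower became 7 with thinned cells. The pairs differing between libraries within gates, 37 higher and 13 lower, stayed within 31 to 41 and 13 to 14. Of the 15 called pairs that dropped under the limit, Zdbf2 in Neurod6 cells did so in 8 alternatives, Mest in Tcf7l2 cells in 6 and Magel2 in Trh cells in 5, the others in at most 3; Dlk1 in Neurod6 cells had opposite signs in the libraries without its 2 richest cells. For single members, 494 of 529 library ratios and 504 of 539 gate ratios moved by less than their counting interval. Scaling by the median of ratios shifted all genes by 0.06 on the log2 scale. The median ratio of the members (0.10) ranged from 0.05 to 0.16; it has no counting interval, and a shift of under 0.1 was taken as no change. Counting error limits the precision of members under about 100 UMIs and of the Oxt gate, with 10 Sim1 heterozygous cells. Thinning removes counts, and added UMIs raise the level of a small gate more than that of its larger reference. The cause of the other moves was not tested.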
